A study of Mus musculus with 2 samples.

Results

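Type I interferon response genes were followed across the cell populations of the neonatal mouse lung. The members were 32 genes chosen by name, of which 31 were found among the 29004 measured features, and Mx2 was not analysed here. Unique molecular identifiers (UMIs, each marking 1 captured transcript) of each member were summed per library and per cluster, over the 23 clusters into which the authors had placed their cells. The study compared lungs of pups given 5E1, an antibody that binds Hedgehog ligands and blocks their signal, with lungs of pups given control IgG. Both groups had the genotype Gli1CreERT2/+ and R26RtdT/+, that is, a tamoxifen-inducible Cre at 1 Gli1 allele, active where Gli1 is expressed, and a tdTomato reporter. All pups received tamoxifen on postnatal day 1 and their antibody on day 3, and lungs were taken on day 6. The lungs of 3 pups were pooled per condition, so there is 1 library per condition. No difference between conditions can be tested with 1 library each. Intervals below are exact 95% intervals that cover counting error only, and neither variation between pups nor between library preparations is in them.

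Type I interferons bind a receptor made of Ifnar1 and Ifnar2, whose kinases Jak1 and Tyk2 phosphorylate transcription factors such as Stat2. With Irf9, these enter the nucleus and bind interferon-stimulated response elements in the promoters of their target genes. The targets include antiviral effectors, sensors of viral RNA and DNA, and further transcription factors such as Irf7 that raise interferon production. Monocytes, macrophages and endothelial cells of the lung are known to respond readily. Interferon gamma and interferon lambda share part of this target set.

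The response element was searched in the promoters because the members are compared below as a group. RefSeq windows of 300 bases (250 before and 50 from the transcription start, GRCm38.p6) were matched for 24 of the 31 members. Usp18, Mx1, Zbp1, Rtp4, Parp14, Dhx58 and Ifi204 were not matched. The core of the response element (GAAA, then NN, then GAAA), searched on both strands, occurred in 12 of 24 members (50%) and in 1079 of 27025 genes with a window (3.99%). The gamma-activated site (TTC, then NNN, then GAA), which reads the same on both strands, occurred in 6 of 24 members (25%) and in 9.55% of genes. Both motifs were searched separately and may overlap. In 8 members a core lay wholly upstream of the start. The sequences below show 7 of these on the strand of the gene, 5′ to 3′, with core matches in capitals, because the genes are among those whose levels the results turn on. A match describes letters in a window and is not evidence of binding.
Isg15, minus strand, chr4:156200860-156200911: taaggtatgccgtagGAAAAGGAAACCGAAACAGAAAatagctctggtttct
Ifit1, plus strand, chr19:34640770-34640828: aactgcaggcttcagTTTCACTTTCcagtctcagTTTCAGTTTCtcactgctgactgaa
Ifit3, plus strand, chr19:34583358-34583431: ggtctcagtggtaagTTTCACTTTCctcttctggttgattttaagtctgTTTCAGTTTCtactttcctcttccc
Rsad2, minus strand, chr12:26456548-26456587: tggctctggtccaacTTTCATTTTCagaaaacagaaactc
Oas1a, minus strand, chr5:120907526-120907560: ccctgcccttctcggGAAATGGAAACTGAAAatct
Bst2, minus strand, chr8:71537572-71537617: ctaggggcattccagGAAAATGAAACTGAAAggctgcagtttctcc
Stat2, plus strand, chr10:128270261-128270300: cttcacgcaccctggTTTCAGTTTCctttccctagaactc
Isg15 held 3 overlapping core matches between 78 and 57 bases before its start. Ifit1 and Ifit3 each held 2 separate matches, and Oas1a held 2 overlapping ones that reach to 5 bases before its start. Irf7, Oasl1, Oasl2, Ifit2, Cmpk2, Herc6, Ifi35, Ifi44, Irf9, Lgals3bp, Sp100 and Xaf1 held no core in their windows.

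The IgG library held 13509 kept cells with 77436890 UMIs and the 5E1 library 9454 kept cells with 58890639 UMIs. The median cell had 4541 and 4636 UMIs. The libraries shared 184 cell barcodes among their kept cells. The pools differed in sex: Xist UMIs without any Y-linked UMI, the pattern of female cells, marked 91.5% of IgG cells and 24.2% of 5E1 cells. Only 1 IgG cell but 2793 5E1 cells had a Y-linked and no Xist UMI. Sex and antibody therefore cannot be told apart by comparing all cells, and counts are repeated below for Xist cells alone. Clusters were called "like" a cell type from marker genes, and clusters 3, 10 and 14 kept only a number because their leading genes pointed to several types or to none.

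Over all kept cells, the response genes were lower in the 5E1 than in the IgG library. All 31 members had a log2 ratio (5E1 over IgG) below 0, and 17 were lower past 1.5-fold, against 6.44% of the 16689 features that reached 20 UMIs when both libraries were added. No member was higher past 1.5-fold, against 6.16% of features. The median log2 ratio was -0.62 over the members and -0.01 over all features. Folds over all kept cells also hold differences in cluster composition between the libraries. Paired values below give the IgG library first. The summed level of the members was 1895 CPM (UMIs per 1000000 UMIs of the same cells) in the IgG library and 1280 CPM in the 5E1 library, 1.48-fold lower (1.47 to 1.49). Ifitm3, a membrane protein that blocks virus entry, alone held 64.0% and 66.6% of these UMIs.

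A subset of strongly inducible members, whose transcripts are scarce without interferon, was therefore followed as well (16 genes found: Isg15, Ifit1, Ifit2, Ifit3, Oasl1, Oasl2, Oas1a, Rsad2, Usp18, Irf7, Mx1, Ifi44, Zbp1, Rtp4, Cmpk2 and Xaf1). It summed to 21808 UMIs or 282 CPM in the IgG library and to 7646 UMIs or 130 CPM in the 5E1 library. This was 2.17-fold lower in the 5E1 library (2.11 to 2.23), a wider gap than for the full list. The full list without Ifitm3 stood at 0.63 of its IgG level and the inducible members at 0.46. The members and this subset were chosen with earlier results of these data known, so the wider gap is a description only.

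Within clusters, 439 pairs of a member and a cluster reached 20 UMIs when both libraries were added. Of these, 377 had a ratio below 0 on the log2 scale and 226 (51.5%) were lower past 1.5-fold in the 5E1 library, against 9.83% of all 221033 pairs of a feature and a cluster. Only 10 pairs (2.28%) were higher past 1.5-fold, against 6.98% of all pairs. For 85 pairs the whole interval lay past 1.5-fold lower, and for 1 pair past 1.5-fold higher. Each of the 31 members was lower past 1.5-fold in at least 1 cluster. The median log2 ratio over the members was below 0, and below that of all features, in 23 of 23 clusters. Its median over clusters was -0.53, while medians of all features ran from -0.11 to 0.03.

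**Figure D1:**
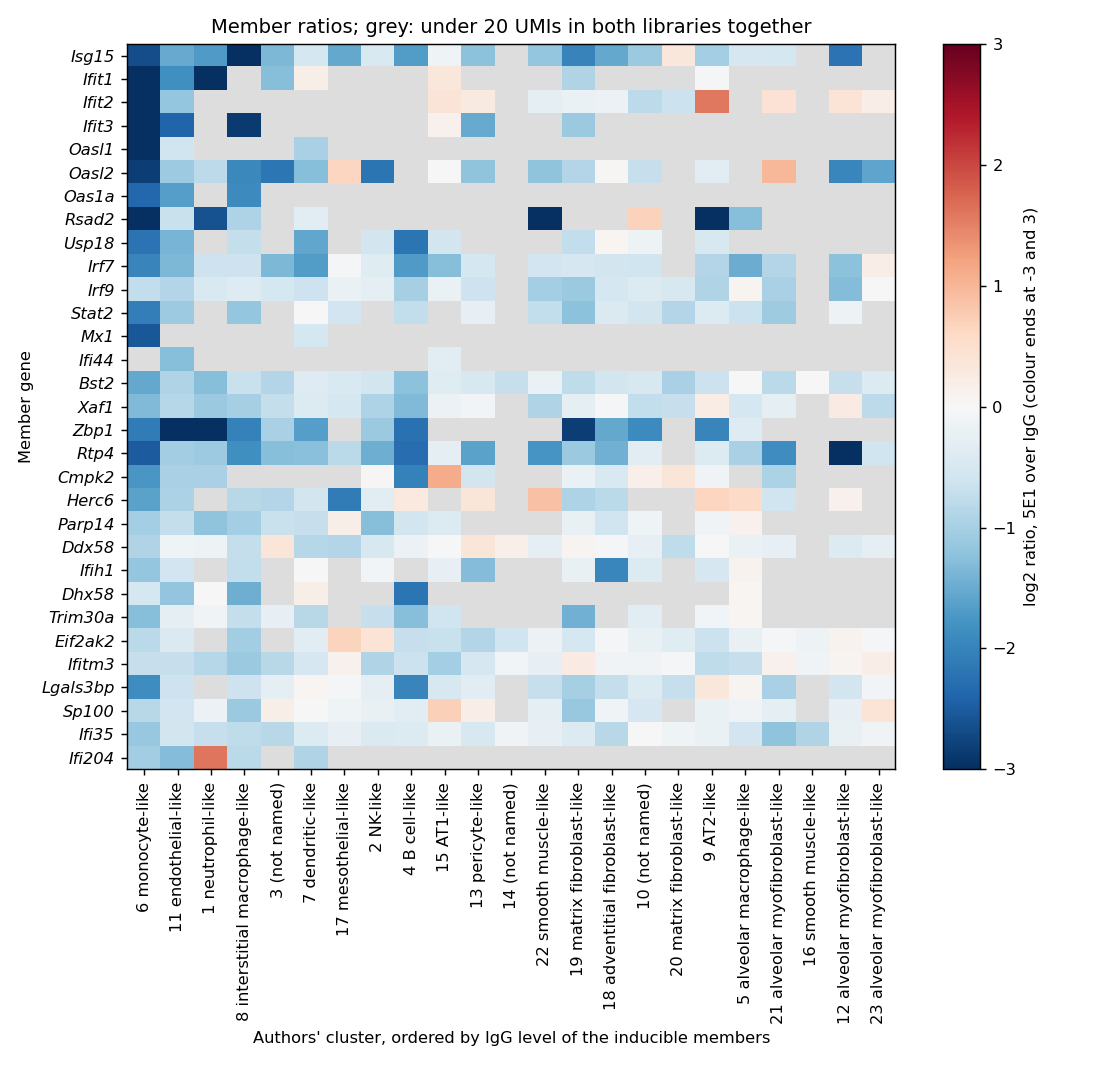
Log2 ratio (5E1 over IgG, colour) of each member (rows) in each of the authors' 23 clusters (columns, ordered by the IgG level of the inducible members), with pairs under 20 UMIs in grey. Of 439 coloured pairs, 377 are below 0 (blue), and the deepest blue lies in monocyte-like cluster 6 on the left.

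The inducible members stood highest in monocyte-like cluster 6 and endothelial-like cluster 11 of both libraries. In cluster 6 they summed to 1580 CPM (1542 to 1619) in the IgG library and 325 CPM (299 to 354) in the 5E1 library, 4.85-fold lower (4.45 to 5.31). In cluster 11 they summed to 722 CPM (706 to 738) and 295 CPM (286 to 305), 2.44-fold lower (2.35 to 2.55). Cluster 6 thus led in the IgG library, while both clusters lay close together in the 5E1 library. Cluster 6 was 7.92% of IgG cells but gave 30.0% of inducible UMIs, and it was 4.42% of 5E1 cells and gave 7.09%. Cluster 11 was 9.57% and 13.9% of cells and gave 34.6% and 45.5% of inducible UMIs. In the IgG library 19 of 31 members had their highest cluster level in cluster 6 and 8 in cluster 11. In the 5E1 library 8 had it in cluster 6 and 8 in cluster 11.

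**Figure D2:**
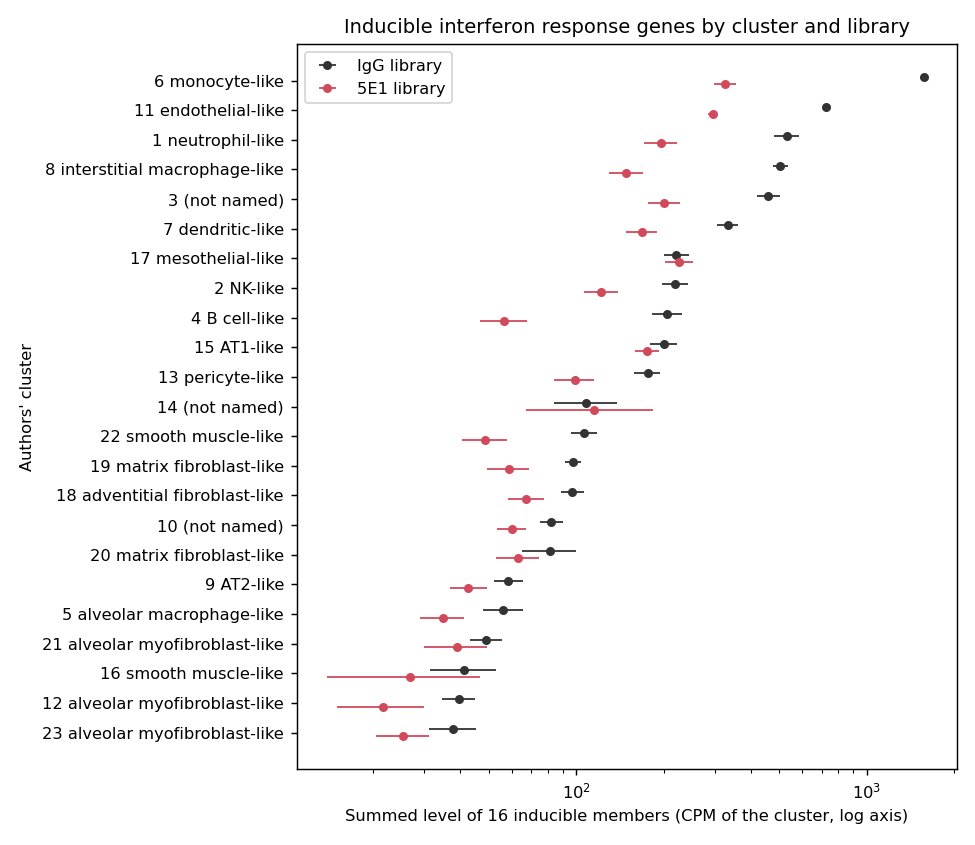
Summed level of the 16 inducible members (CPM of the cluster, log axis) in each of the authors' clusters, with 1 point per library and exact 95% Poisson intervals. The IgG point lies to the right of the 5E1 point in 21 of 23 clusters, from 1580 against 325 CPM in cluster 6 to 37.8 against 25.4 CPM in cluster 23.

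The summed inducible level was lower in the 5E1 library in 21 of 23 clusters, and in 17 the interval of the ratio excluded equality. The exceptions were mesothelial-like cluster 17, at 222 CPM in IgG cells and 226 CPM in 5E1 cells, and cluster 14, at 109 and 115 CPM from 65 and 17 UMIs. Immune clusters besides cluster 6 followed the same order. Interstitial macrophage-like cluster 8 had 505 and 149 CPM, neutrophil-like cluster 1 had 532 and 196 CPM, and B cell-like cluster 4 had 206 and 56.6 CPM. Cluster 3, with T cell and mast cell or basophil markers, had 459 and 201 CPM, dendritic-like cluster 7 had 332 and 168 CPM, and NK-like cluster 2 had 219 and 122 CPM. Alveolar macrophage-like cluster 5 was low in both, at 56.2 and 34.8 CPM. AT2-like cluster 9, at 58.5 and 42.6 CPM, and smooth muscle-like cluster 16, at 41.2 and 26.8 CPM, were low as well. Myofibroblast-like clusters 12, 21 and 23 lay between 37.8 and 49.1 CPM in the IgG library and between 21.6 and 38.9 CPM in the 5E1 library.

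The full list differed from its inducible subset in some stromal clusters, where Ifitm3 gave most of its UMIs. The summed list was lower in the 5E1 library in 18 of 23 clusters and higher, with an interval above equality, in clusters 17 and 23. In cluster 23 it was 989 CPM in IgG cells and 1101 CPM in 5E1 cells. Ifitm3 itself was 862 and 996 CPM there, and 676 and 797 CPM in matrix fibroblast-like cluster 19. In 5 clusters Ifitm3 had a log2 ratio above 0, up to 0.24, and in the other 18 below 0, down to -1.12.

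The share of members that were lower was highest in clusters 6, 8 and 11 and lowest in AT1-like cluster 15, with immune and stromal clusters mixed between them. It was 29 of 30 members in cluster 6 (11.7% of features), 24 of 25 in cluster 8 (11.5%) and 24 of 30 in cluster 11 (5.85%). B cell-like cluster 4 had 15 of 20 (10.5%), cluster 3 had 12 of 17 (8.33%) and cluster 1 had 13 of 19 (20%). Matrix fibroblast-like clusters 19 and 20 had 14 of 24 (12.9%) and 6 of 12 (9.74%), and dendritic-like cluster 7 had 11 of 26 (10.7%). Myofibroblast-like clusters 21 and 12 had 9 of 17 (11.3%) and 6 of 16 (12.4%), smooth muscle-like cluster 22 had 8 of 17 (6.53%) and adventitial fibroblast-like cluster 18 had 8 of 21 (6.6%). NK-like cluster 2 had 7 of 20 (8.65%) and cluster 10 had 6 of 22 (6.54%). AT1-like cluster 15 had 4 of 22 (7.27%), and AT2-like cluster 9 had 8 of 24 (8.45%). Pericyte-like cluster 13 had 7 of 19 (8.1%) and cluster 17 had 4 of 16 (8.66%). In cluster 5 the share was 5 of 20 (6.54%) and in cluster 23 it was 3 of 13 (8.95%). Clusters 14 and 16 had only 5 and 4 members with enough UMIs, of which 2 (21.8%) and 1 (16%) were lower.

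**Figure D3:**
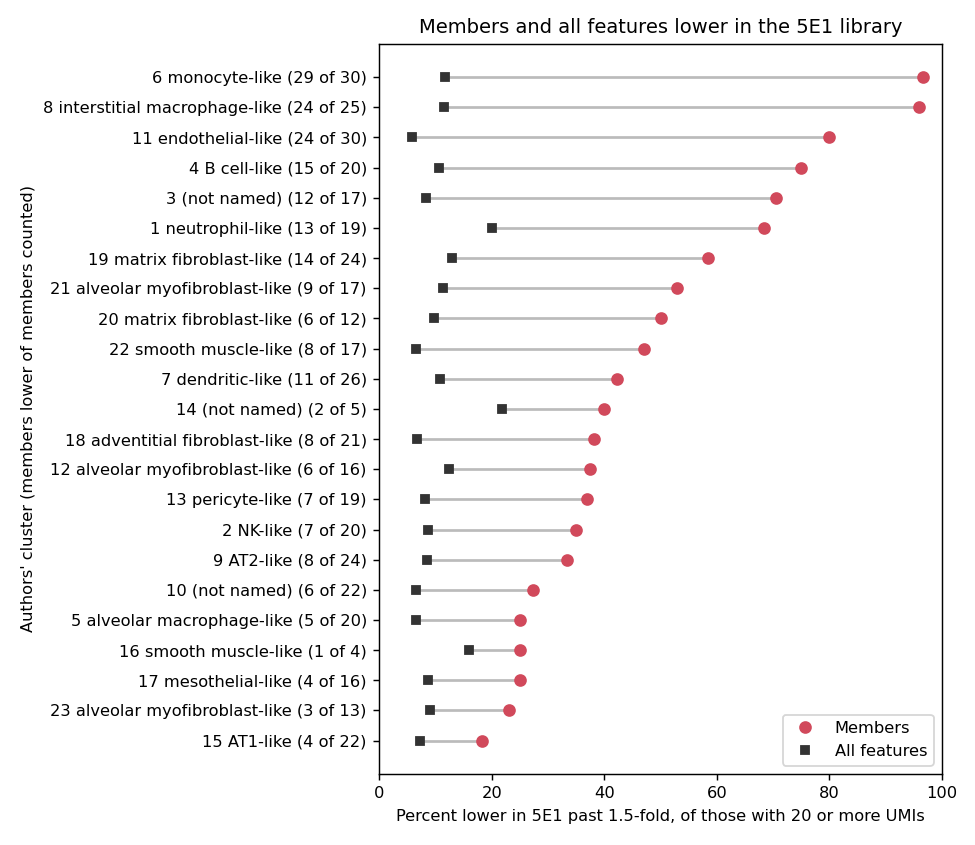
Percent of members (circles) and of all features (squares) that were lower past 1.5-fold in the 5E1 library, among those with at least 20 UMIs, in each of the authors' clusters, with the members' counts in the labels. The members' share exceeds that of all features in 23 of 23 clusters, from 29 of 30 in cluster 6 to 4 of 22 in cluster 15.

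In monocyte-like cluster 6 (1070 IgG and 418 5E1 cells), the median log2 ratio of the members was -1.80 and that of all features -0.00. The transcription factors came first in the pathway. Irf7, which amplifies interferon production, had 1254 UMIs (303 CPM) in IgG cells and 128 UMIs (76.9 CPM) in 5E1 cells, 3.94-fold lower (3.28 to 4.76). Stat2, a subunit of the activating complex, had 68 and 6 UMIs, 4.56-fold lower (1.99 to 12.9). Irf9, the DNA-binding subunit, had 196 and 47 UMIs, 1.68-fold lower (1.21 to 2.36). All 3 were thus lower, Irf9 least.

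Sensors in cluster 6 differed among themselves. Zbp1, which binds nucleic acid in the Z form, had 1625 UMIs (392 CPM) in IgG cells and 152 UMIs (91.3 CPM) in 5E1 cells, 4.30-fold lower (3.64 to 5.11). Ifi204, a DNA sensor, had 863 UMIs (208 CPM) and 168 UMIs (101 CPM), 2.07-fold lower (1.75 to 2.45). The RNA sensors had wide intervals. Ddx58 (RIG-I) was 1.89-fold lower (1.16 to 3.23), Ifih1 (MDA5) 2.27-fold (1.48 to 3.62) and Eif2ak2 (PKR) 1.77-fold (1.14 to 2.85). Dhx58 (LGP2) was the 1 member of 30 that was not lower past 1.5-fold, at 25.4 and 17.4 CPM.

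Antiviral effectors and the Isg15 system showed the largest ratios in cluster 6. Isg15, a ubiquitin-like protein that is attached to other proteins, had 1099 UMIs (265 CPM) in IgG cells and 70 UMIs (42.0 CPM) in 5E1 cells, 6.31-fold lower (4.96 to 8.16). Usp18, which removes Isg15 and dampens receptor signalling, had 110 and 9 UMIs, 4.92-fold lower (2.5 to 11). Oasl2, of the oligoadenylate synthetase family, had 431 and 24 UMIs, 7.22-fold lower (4.79 to 11.4). Several effectors were close to absent from the 5E1 cells of this cluster. Ifit3, of a family that binds viral RNA, had 152 and 3 UMIs, a ratio of 20.4-fold (6.84 to 99.9). Rsad2 (viperin), which makes an antiviral nucleotide, had 118 and 3 UMIs, 15.8-fold (5.28 to 77.8). Ifit1 had 98 and 4 UMIs, 9.85-fold (3.73 to 36.9), and Oasl1 had 75 and 3 UMIs, 10.1-fold (3.31 to 49.9). Mx1, a GTPase that blocks influenza virus, had 65 and 4 UMIs, and Ifit2 had 46 and 1. All of these values rest on 1 to 4 UMIs in the 5E1 library, so their folds are wide.

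Other members of cluster 6 ranged from Rtp4, a chaperone of receptors, to Ifitm3. Rtp4 had 937 UMIs (226 CPM) in IgG cells and 66 UMIs (39.6 CPM) in 5E1 cells, 5.71-fold lower (4.45 to 7.45). Bst2 (tetherin), which holds budding viruses at the membrane, had 285 and 97.9 CPM, 2.91-fold lower (2.47 to 3.45). Lgals3bp was 3.68-fold lower (2.60 to 5.34) and Trim30a 2.45-fold (1.96 to 3.11). Ifitm3 had 24848 and 6232 UMIs (6001 and 3742 CPM), 1.60-fold lower (1.56 to 1.65). Of the inducible members, 15 of 15 with enough UMIs were lower past 1.5-fold, while Ifi44 had too few.

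**Figure D4:**
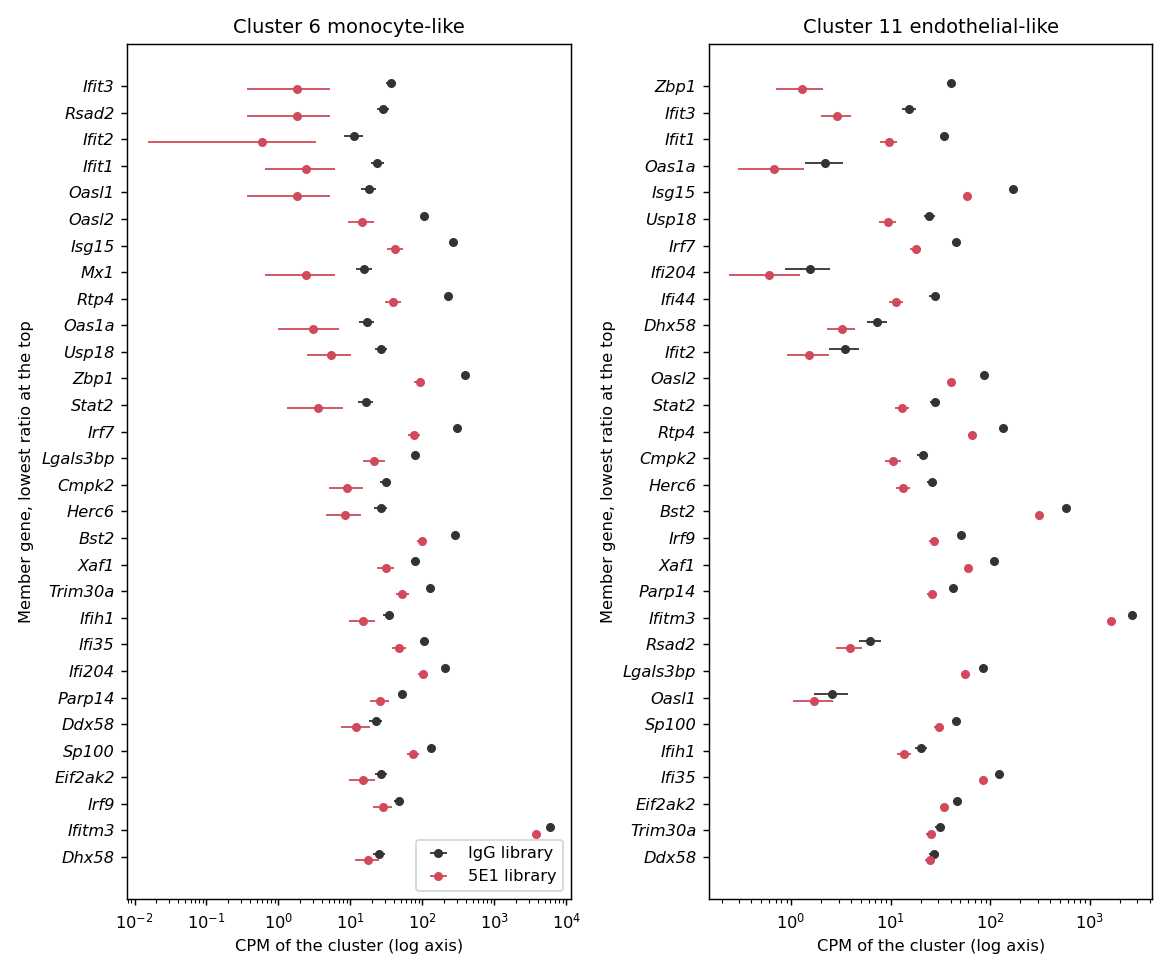
Level of each member (CPM of the cluster, log axis) in monocyte-like cluster 6 (left) and endothelial-like cluster 11 (right), with 1 point per library and exact 95% Poisson intervals, ordered by the ratio of the libraries. In cluster 6 the gap narrows from Ifit3 (152 against 3 UMIs) to Dhx58, and in cluster 11 from Zbp1 (426 against 15 UMIs) to Ddx58.

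Some monocyte markers moved with these values in cluster 6. The 6 classical monocyte markers summed to 12730 CPM in IgG cells and 7420 CPM in 5E1 cells, and the 7 nonclassical ones to 1227 and 1684 CPM. Plac8 alone was 9863 and 5949 CPM of the classical sum. Ly6c2 was 2130 and 973 CPM, whereas Ccr2, the chemokine receptor of classical monocytes, was 283 and 256 CPM. Vcan was 36.9 and 27.6 CPM, and the ratio intervals of Ccr2 and Vcan include equality. F13a1 went the other way, at 63.5 and 116 CPM. Ms4a4c, 1 of the 6, is also among the other interferon-stimulated genes below and was 354 and 97.9 CPM. Cells with more nonclassical than classical marker UMIs were 45 of 1070 and 55 of 418. Without them, in a split chosen after the data were seen, 29 of 30 members were lower (12.2% of features), with a median of -1.77. The classical markers had many more UMIs in this cluster and include Ms4a4c. The remaining cells can therefore still hold nonclassical monocytes, so the split does not separate the kinds of monocyte. In the 45 and 55 cells alone the inducible members were 652 and 165 CPM, 3.95-fold lower (2.41 to 6.68). In the other cells they were 4.71-fold lower (4.31 to 5.16), so the intervals of both sets of cells overlap.

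In endothelial-like cluster 11 (1293 IgG and 1314 5E1 cells), the median log2 ratio of the members was -0.97 and that of all features 0.00. Zbp1 stood apart from the others, with 426 UMIs (40.8 CPM) in IgG cells and 15 UMIs (1.27 CPM) in 5E1 cells, 32-fold lower (19.2 to 57.8). Isg15 had 1752 UMIs (168 CPM) and 692 UMIs (58.7 CPM), 2.86-fold lower (2.61 to 3.12). Ifit3 had 160 and 34 UMIs, 5.31-fold lower (3.65 to 7.93), and Ifit1 had 361 and 113 UMIs, 3.60-fold lower (2.91 to 4.49). Most inducible members stayed detectable in 5E1 endothelial-like cells. Zbp1 differed from them in its ratio and not in a low count alone, as Oas1a and Mx1 had fewer UMIs in these cells.

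Ifi44, which was scarce in cluster 6 with 10 and 3 UMIs, had 289 and 134 UMIs in cluster 11, 2.43-fold lower (1.98 to 3.01). Irf7 was 45.8 and 17.8 CPM, 2.57-fold lower (2.18 to 3.04). Bst2, with its highest level here, was 578 and 308 CPM, 1.87-fold lower (1.80 to 1.95). Stat2 was 28.1 and 13.1 CPM, 2.14-fold lower (1.76 to 2.62), and Irf9 was 50.6 and 27.3 CPM, 1.85-fold lower (1.61 to 2.14). Transcripts of both factors were thus lower. The RNA sensor Ddx58 was 27.2 and 25.0 CPM, 1.09-fold (0.92 to 1.28), an interval that includes equality. Rsad2, at 6.22 and 3.90 CPM, and Oasl1, at 2.58 and 1.70 CPM, were closer to equality than in cluster 6, where the intervals of both lay higher. Ifitm3 was 2647 and 1651 CPM, 1.60-fold lower (1.57 to 1.63), the same ratio as in cluster 6.

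Cluster 11 also holds lymphatic cells. Among cells with at least 3 lymphatic endothelial markers, 13 of 23 members were lower (7.97% of features), with a median of -0.70. Among the rest 23 of 29 were lower (5.79%), with a median of -0.99. This split was chosen after the data were seen.

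In interstitial macrophage-like cluster 8 (323 and 234 cells), all 25 members with enough UMIs had a ratio below 0, with a median of -1.01. Isg15 had 206 UMIs (105 CPM) in IgG cells and 19 UMIs (12.9 CPM) in 5E1 cells, 8.10-fold lower (5.06 to 13.7). Rtp4 had 224 and 46 UMIs, 3.64-fold lower (2.64 to 5.11), and Oasl2 had 105 and 20 UMIs, 3.92-fold lower (2.41 to 6.68). Irf7 was 50.4 and 32.7 CPM, 1.54-fold lower (1.08 to 2.22), with an interval below that of cluster 6. Ifitm3 was 525 and 242 CPM, 2.17-fold lower (1.92 to 2.46). RNA of secretory airway cells differed in the same direction in this cluster, at 8142 and 1600 CPM. Its part in the result was not tested.

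In B cell-like cluster 4 (380 and 426 cells) the median log2 ratio was -1.26. Rtp4 had 30 and 9 UMIs, 5.07-fold lower (2.35 to 12.1), and Zbp1 had 51 and 16 UMIs, 4.85-fold lower (2.72 to 9.10). Irf7 had 37 and 17 UMIs, 3.31-fold lower (1.82 to 6.27), and Trim30a had 79 and 49, 2.45-fold lower (1.69 to 3.58). Sp100, a nuclear body protein with its highest IgG level here, was 169 and 134 CPM, 1.26-fold lower (1.05 to 1.5). These 4 members thus differed more than Sp100.

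In neutrophil-like cluster 1 (256 and 454 cells) the median was -0.86. Zbp1 had 53 UMIs (70.9 CPM) in IgG cells and 6 UMIs (5.12 CPM) in 5E1 cells, 13.8-fold lower (5.96 to 39.4). Ifit1 had 29 and 4 UMIs, 11.4-fold lower (3.99 to 44.5), and Isg15 had 88 and 42 UMIs, 3.28-fold lower (2.25 to 4.86). Ifi204 went the other way, with 9 UMIs (12 CPM) and 45 UMIs (38.4 CPM), a ratio of 3.19 (1.54 to 7.42). It was the 1 pair whose interval lay wholly past 1.5-fold higher. Mmp9 and Cxcr2, genes of mature neutrophils named after their values were seen, were also higher in the 5E1 cells, at 433 and 700 CPM and at 162 and 290 CPM. Their part in the result was not tested.

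The summed inducible level was also lower in the 5E1 cells of cluster 3 and of dendritic-like cluster 7. In cluster 3, Isg15 was 86.1 and 33.4 CPM, 2.58-fold lower (1.76 to 3.86), and Irf7 was 70.0 and 27.4 CPM, 2.56-fold lower (1.67 to 4). Sp100 was 166 and 186 CPM there, a ratio whose interval includes equality. In dendritic-like cluster 7, Irf7 was 51.7 and 16 CPM, 3.23-fold lower (2.03 to 5.30), and Zbp1 was 59.4 and 18.7 CPM, 3.17-fold lower (2.07 to 5.01). In this cluster 20 of 26 members had a log2 ratio below 0.

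Most stromal clusters had lower inducible levels than clusters 6 and 11, and Isg15 differed in several of them. Isg15 was lower with its whole interval past 1.5-fold in pericyte-like cluster 13 (59.9 and 25.2 CPM), smooth muscle-like cluster 22 (42.4 and 18.7 CPM) and mesothelial-like cluster 17 (37.2 and 12.5 CPM). The same held in adventitial fibroblast-like cluster 18 (15.5 and 5.20 CPM) and matrix fibroblast-like cluster 19 (12.1 and 2.83 CPM). In cluster 19 Zbp1 had 39 UMIs in IgG cells and 1 in 5E1 cells. Pericyte-like cluster 13 had a median of -0.49, and Ifitm3 was 1779 and 1264 CPM there, 1.41-fold lower (1.33 to 1.49). Over all 23 clusters Isg15 met that rule in 11, Rtp4 and Zbp1 in 9 each and Ifitm3 in 7.

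Where a member had no UMI in the 5E1 library, a floor of 3 UMIs per library gives a bound. Rsad2 had 20 UMIs in IgG and 0 in 5E1 cells of AT2-like cluster 9, at least 5.74-fold lower. Rtp4 had 25 and 0 UMIs in myofibroblast-like cluster 12, at least 2.26-fold lower.

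Mesothelial-like cluster 17 and the epithelium held most pairs that ran against the list. In cluster 17, Oasl2 was 103 CPM (193 UMIs) in IgG cells and 160 CPM (230 UMIs) in 5E1 cells, a ratio of 1.56 (1.28 to 1.90), and this was its highest cluster level in the 5E1 library. Eif2ak2 was 25.0 and 39.6 CPM in the same cluster, a ratio of 1.59 (1.06 to 2.38). Isg15 was lower there, so the members did not move as 1 group in these cells. Secretory airway markers, at 1869 and 5055 CPM, went the opposite way to most clusters. In AT2-like cluster 9, Ifit2 had 7 and 19 UMIs, a ratio of 3.15 (1.27 to 8.87), and in AT1-like cluster 15, Sp100 was 15.2 and 25.1 CPM, a ratio of 1.65 (1.03 to 2.73). The other 5 such pairs were Oasl2 in cluster 21, Rsad2 in cluster 10, Cmpk2 in cluster 15 and Herc6 in clusters 9 and 22, and their intervals include equality.

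Across clusters, members differed in how widely they were lower. Zbp1 had a ratio below 0 in 13 of 13 clusters with enough UMIs and was lower past 1.5-fold in 12. Over all cells it was 36.6 and 7.35 CPM, 4.98-fold lower (4.50 to 5.52), a log2 ratio of -2.31 that also holds cluster composition. With each cluster weighted alike the log2 ratio of Zbp1 was -1.84. Rtp4 was below 0 in 20 of 20 clusters and past 1.5-fold in 17, and Isg15 in 19 of 20 and 14. Bst2 was below 0 in 23 of 23 and Irf7 in 19 of 20 clusters. Mx1 and Oas1a, at 1.37 and 0.32 CPM and at 1.91 and 0.46 CPM over all cells, reached 20 UMIs in only 2 and 3 clusters. At the other end, Ddx58 was 14.6 and 13.6 CPM, 1.07-fold (0.98 to 1.17), and Sp100 was 29.0 and 27.8 CPM, 1.04-fold (0.98 to 1.11). The 6 sensors were lower in 38 of 86 pairs, the effectors in 76 of 132 and the 3 genes of the Isg15 system in 30 of 50, to be read against 9.83% of all pairs.

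The same was counted cell by cell. Cells were thinned to 2000 UMIs each, and 1782 IgG and 1183 5E1 cells below that depth were left out. A cell with a UMI of at least 3 of the 16 inducible members was counted, which is a range of a count and not a cell type. Such cells were 681 of 11727 (5.81%, 5.39 to 6.25) in IgG cells and 76 of 8271 (0.92%, 0.72 to 1.15) in 5E1 cells, 6.32-fold fewer. Clusters 6 and 11 gave 386 and 185 of these IgG cells and 7 and 39 of the 5E1 cells. Cluster 6 was 7.92% of all IgG but 4.42% of all 5E1 cells, so this fold also holds cluster composition. Without thinning the shares over all cells were 12.6% and 6.16%. In thinned cells of cluster 6 the shares were 43.3% (40.0 to 46.6) of 891 cells and 1.92% (0.78 to 3.92) of 364 cells. In cluster 11 they were 18.4% (16 to 20.9) of 1007 and 3.64% (2.60 to 4.94) of 1071 cells. AT1-like cluster 15 had 2.10% and 1.78% and neutrophil-like cluster 1 had 3.05% and 1.79%, with fold intervals that include equality. For cluster 1 this depended on depth, and 2000 UMIs left out 92 IgG and 231 5E1 cells of it. Thinned to 1000 UMIs, cluster 1 had 4.66% and 0.47%, 10.0-fold fewer (2.18 to 92.8). Thinned to 3000 UMIs it had 5.21% and 0.70%, with an interval that includes equality. Back at 2000 UMIs, 0 of 465 and 0 of 536 cells qualified in myofibroblast-like cluster 23, which allows shares of up to 0.65% and 0.56%. Cluster 23 had the lowest inducible level of the IgG library.

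**Figure D5:**
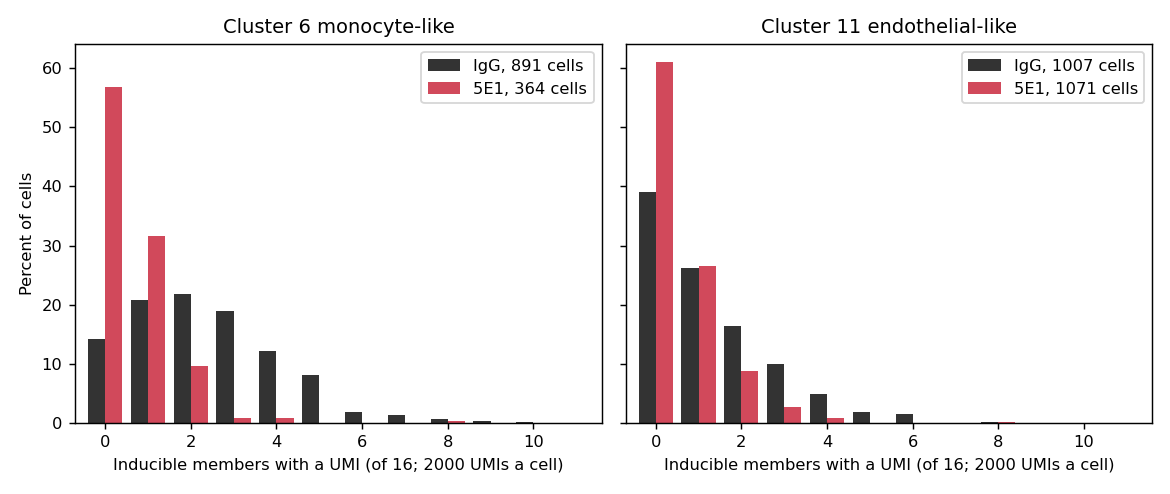
Percent of cells by the number of inducible members with a UMI, after thinning to 2000 UMIs, in monocyte-like cluster 6 (left) and endothelial-like cluster 11 (right) of each library. In cluster 6, 14.1% of IgG and 56.9% of 5E1 cells have none, and the IgG bars extend to 10 members.

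In cluster 6 the whole distribution differed and not a small tail. Cells with no inducible member were 14.1% of the IgG and 56.9% of the 5E1 cells of the cluster, and the mean number of members per cell was 2.39 and 0.59. In cluster 11, 39.1% and 61.1% of cells had none, with means of 1.28 and 0.56. Before thinning, the top 10% of cells in cluster 6 held 32% of its inducible UMIs in the IgG library and 47.8% in the 5E1 library, and in cluster 11 they held 49.0% and 47.6%. These shares before thinning also depend on how unevenly depth is spread over the cells. At equal depth in the IgG library, fewer monocyte-like (14.1%) than endothelial-like cells (39.1%) had no inducible member.

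Genes upstream in the pathway were counted from lists, again with the caution that lists were drawn up with earlier results known. Transcripts of type I interferons were almost absent. Ifnb1 had 2 UMIs in IgG cells and 0 in 5E1 cells, and each of the 13 Ifna genes on the list had 0 in both, which allows up to 3 UMIs per library. Ifng, made by NK and T cells, had 160 and 112 UMIs over all cells, and in NK-like cluster 2 it was 65.8 and 41.9 CPM, 1.57-fold lower (1.16 to 2.13). No other interferon gene had 50 UMIs.

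The receptor chains were not lower. Over all cells Ifnar1 was 33.1 and 40.1 CPM and Ifnar2 57.2 and 61.6 CPM, and the kinases Jak1 and Tyk2 were 84.6 and 90.8 CPM and 5.22 and 6.57 CPM. For interferon gamma, Ifngr1 was 106 and 124 CPM and Ifngr2 was 60.7 and 64.7 CPM. Of the feedback inhibitors, Socs1 was 19.3 and 13.9 CPM and Socs3 165 and 234 CPM, so they went opposite ways.

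Of 16 sensing genes with enough UMIs, 9 had a ratio below 0 and none was past 1.5-fold in either direction over all cells. Samhd1 was 116 and 96.5 CPM, Irf8 was 62.8 and 56.4 CPM, and Irf3, which starts interferon transcription, was 46.7 and 46.3 CPM. Of 62 other interferon-stimulated genes, 48 had a ratio below 0, 22 were lower (6.44% of features) and 0 higher (6.16%) past 1.5-fold. In cluster 6, 42 of 55 were lower (11.7% of features), with a median of -1.15. Ifi27l2a, the one with most UMIs among those that were lower, was 311 and 134 CPM over all cells. Ifitm1 and Ifitm2, relatives of Ifitm3, were not lower, at 149 and 166 CPM and at 837 and 850 CPM. Cxcl9, a chemokine induced mainly by interferon gamma, had 104 and 2 UMIs in cluster 8, a ratio of 38.8-fold (10.5 to 325).

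Outside all lists, 10 genes with at least 500 UMIs had the cluster pattern most like the mean z-score of the inducible members, by the mean of the Pearson correlations of log2(CPM + 1) over 23 clusters in each library (0.74 to 0.81). They were Ccdc12, Tspan13, Orai1, Tpst2, Phf11a, Tap1, Ocel1, H2-D1, Necap2 and Psmb9. The points share libraries and depth, and the correlations are a description. Tap1 and Psmb9, which load and cut peptides for class I presentation, were lower in the 5E1 library as the members were. In cluster 11, Tap1 was 160 and 31.6 CPM, 5.04-fold lower (4.50 to 5.66), and Psmb9 was 242 and 66.4 CPM, 3.64-fold lower (3.36 to 3.95). H2-D1, a class I heavy chain, was 1952 and 865 CPM there. Ccdc12, Tspan13, Orai1, Tpst2, Ocel1 and Necap2 had log2 ratios over all cells of 0.03 to 0.61. The other 4 were lower, and of these Phf11a was 5.81 and 2.84 CPM over all cells, 2.05-fold lower (1.71 to 2.46).

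Other measures moved with the libraries. Immediate early genes, which respond to handling of cells, were higher in the 5E1 library in 19 of 23 clusters, with a median log2 ratio of 0.37. Secretory airway transcripts outside their own cluster were lower in 21 of 22 clusters, with a median of -0.71, and classical monocyte markers outside cluster 6 in 20 of 22, with a median of -0.65. The level of classical monocyte marker RNA can be set beside that of the inducible members. Plac8 alone gave 9863 of the 12377 CPM of these markers, without Ms4a4c, in cluster 6 of the IgG library. Whether marker RNA in other clusters was free or made by their own cells was not tested. Classical monocyte markers without Ms4a4c stood in cluster 11 at 2.44% of their cluster 6 level in the IgG library, whereas the inducible members stood at 45.7%. In matrix fibroblast-like cluster 19 the values were 2.69% and 6.17%, and in myofibroblast-like cluster 23 they were 0.99% and 2.39%. The order was reversed in B cell-like cluster 4, where the markers stood at 23.8% and the inducible members at 13%, and in the 5E1 library at 38.2% and 17.4%. Plasmacytoid dendritic markers were low in all clusters, up to 56.5 CPM in IgG cells and 58.1 CPM in 5E1 cells. The part of these measures in the result was not tested.

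With Xist cells alone in both libraries, 175 of 380 pairs were lower past 1.5-fold (14.4% of all pairs of a feature and a cluster) and 22 higher (10.8%), and the summed list was 0.71 of its IgG level. In cluster 6 the median was -2.21, and in cluster 11 it was -1.01. When 5E1 cells with a Y-linked and no Xist UMI were set against all IgG cells, an alternative chosen after the data were seen, 194 of 397 pairs were lower (12.9% of all pairs) and 13 higher (10.8%). The medians were -1.79 in cluster 6 and -0.98 in cluster 11. The medians of clusters 6 and 11 were close to or below those of all cells in both settings. In the Y-linked setting sex and antibody differ together, so it cannot tell them apart. The setting with Xist cells alone kept 24.2% of 5E1 cells. With Xist cells alone the median was above 0 in clusters 7, 14 and 16, at 0.14, 0.06 and 0.31.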

How the data were processed

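The deposited matrices hold counts of UMIs per gene and barcode. The authors made them with Cell Ranger 3.1.1 on mm10, per the submitters' processing notes, from 10x 3′ v2 libraries, per the labels' protocols. For alignment settings, cell calling and doublet removal the status is: not given in the sources used here. Cells and clusters came from the authors' deposited table, whose header is shifted by 1 column. It kept 13509 of 15021 IgG and 9454 of 10519 5E1 barcodes. No doublet caller was run here; leaving out the top 5% of cells by UMIs was an alternative.

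Counts were summed per library and cluster and scaled to the cluster's UMIs (CPM). Intervals at 95% were exact Poisson for sums, conditional binomial for ratios and Clopper-Pearson for shares. Log2 ratios had 0.5 UMI added to each sum, and medians and counts used features reaching 20 UMIs when both libraries were added. With 1 library per condition no test was made. All members could be named. The clusters described member by member (6, 11, 8, 4 and 1) were not the 5 with the highest list level. Clusters 13 and 17 stood higher in the list than clusters 8 and 4. The described clusters held the most pairs with an interval past 1.5-fold (23, 17, 6, 10 and 6), so this choice follows the ratios. Ratios were given mainly where the interval lay past 1.5-fold. Further genes were the receptors and kinases, up to 5 per pathway list by UMIs, those with such an interval, and the 10 most like the inducible members. Cxcr2, Mmp9 and monocyte genes were added after their values were seen. The members and lists were chosen with earlier results of these data known.

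Nearly identical copies make Ifit3 (with Ifit3b), Oas1a (with Oas1g) and Ifi204 uncertain. Irf9, Rtp4, Herc6, Parp14 and Sp100 overlap another gene on their strand in GENCODE vM21. Python 3.11.15, numpy 2.4.6, scipy 1.17.1, pandas 2.3.3 and matplotlib 3.10.9 were used, and the ratio code was tested on simulated data. 1 gene of the pathway lists is not reported here.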

Additional observations from a re-analysis of the deposited data

Results flagged for a closer look

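Ifi204 in neutrophil-like cluster 1 drew attention because it went the opposite way from the other clusters with enough UMIs. Its ratio of 5E1 over IgG was 3.19 in cluster 1, from 9 and 45 UMIs, while it was lower past 1.5-fold in the other 4 clusters counted. The difference between clusters was not tested, since each condition is 1 library. It is 1 of 439 pairs of a member and a cluster.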

How the results depend on the processing

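No paired analysis was possible because each condition is 1 library, so the groups share fewer than 2 replicate numbers. The summed list stood at 0.68 of its IgG level and at 0.62 with cells thinned to 1000 UMIs, 0.71 with Xist cells only, 0.46 with inducible members only, 0.71 with 5E1 Y-linked cells against all IgG cells, 0.63 without Ifitm3 and 0.70 with each cluster weighted alike. The median over clusters moved from -0.53 to -0.87 with inducible members only. The 226 lower pairs became 92 of 167 on thinning to 1000 UMIs, 120 of 182 for inducible members, 98 of 177 at a minimum of 100 UMIs, 360 of 684 with no minimum and 126 at 2-fold. The 10 higher pairs became 6, 5, 2, 51 and 3 in the same order and 22 with Xist cells only. Lower pairs outnumbered higher ones in every one of these settings. The share of cells with 3 or more inducible members was 5.81% in the IgG and 0.92% in the 5E1 library. It was 10.9% and 3.32% at 2 or more members, 1.35% and 0.0725% at 5 or more, 2.11% and 0.27% at 1000 UMIs, 8.0% and 1.43% at 3000 UMIs and 5.28% and 0.70% with Xist cells only. The level of the list in cluster 6 of the IgG library, 8773 CPM, was 1580 CPM for inducible members. Median-ratio scaling gave 0.68, 223 lower and 10 higher pairs. Medians of single clusters were above 0 in 7 of 23 clusters at 1000 UMIs, where few members had enough UMIs, in clusters 7, 14 and 16 with Xist cells only, and in cluster 23 with Y-linked cells and at 100 UMIs.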
